A study of Mus musculus with 18 samples.

Results

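Bulk RNA sequencing of total RNA was used to compare E12.5 with E10.5 (days of embryonic development) in the hearts of wild-type mice of the C57BL/6 strain. Every library that the labels give to these ages was used, 4 at E12.5 and 4 at E10.5, which are 8 of the 18 libraries in a series that also covers E9.5, E14.5 and E16.5. Both groups were dissected hearts of 1 strain and 1 genotype, untreated and with males and females pooled, so the labels name no difference between the groups other than age. The labels give neither the number of embryos in a library nor their litters. The p-values therefore rest on differences among libraries, part of which may be technical. For the gene tests this spread was estimated over all 18 libraries of the series, not the 8 alone.

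Between these ages the mouse heart goes from a looped, trabeculated tube that has just begun to divide into chambers to an organ with septa, compact ventricular walls and valve primordia. The epicardium, a cell layer that spreads over the surface, releases cells that become fibroblasts and mural cells of the coronary vessels, while endothelial sprouts form a plexus in the wall. Cardiomyocytes keep dividing while their sarcomeres, calcium stores and mitochondria mature, and many contractile and metabolic proteins exist as paralogues of which one form is used early and another later.

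Levels are CPM, counts scaled to library size (TMM), and are given as the mean ± SD of 4 libraries. Log2 fold changes are of E12.5 over E10.5, with their standard error, from edgeR's quasi-likelihood test, and a gene "rose" or "fell" when its Benjamini-Hochberg adjusted p over all genes tested was under 0.05. Total counts were 37060489 to 44802875 per library at E10.5 and 36361812 to 45646538 at E12.5. The 8 libraries fell into kinds that the labels do not name. The summed level of 8 transcripts typical of activated macrophages (the lysosomal Atp6v0d2 and Gpnmb, the antigen presentation genes H2-Aa and Cd74, the integrin Itgax, the proteases Mmp13 and Mmp12, and Chil3) was 346 to 676 CPM in 5 libraries (E10.5 replicates 3 and 4, E12.5 replicates 1, 2 and 3), called macrophage-high below, and 0.603, 0.800 and 2.75 CPM in the 3 others (E10.5 replicates 1 and 2, E12.5 replicate 4), called macrophage-low. The names refer to these 8 transcripts, not to macrophage genes at large. Over all 4 E12.5 libraries Csf1r, C1qa and Adgre1 lay between 20.1 and 24.9, 5.97 and 7.60, and 5.17 and 10.9 CPM. At E10.5 the same genes lay between 3.29 and 9.30, 0.216 and 1.33, and 0.481 and 8.45 CPM. There Csf1r was higher in the macrophage-high than in the macrophage-low libraries. The macrophage-low libraries lay at one end of the leading principal component (60.3% of the variance of the 2000 most variable genes) within their stage. This component did not separate the stages, as E12.5 replicate 4 (-12.8) lay below E10.5 replicates 3 and 4 (1.58 and 1.75). It thus mixes kind of library with stage. Results are therefore also given within each kind, where the macrophage-low kind has a single E12.5 library. The fit within that kind takes its spread from the macrophage-low libraries of all stages and assumes that the lone library varies like them. Of the 18042 genes that could be fitted in both kinds, 14704 (81.5%) had the direction of the whole comparison in both. Among the 7066 of them that were called, this held for 7054 (99.8%), but these genes were chosen by the comparison that the 2 kinds make up. In E10.5 replicates 3 and 4 the transcript of growth hormone, Gh, stood at 193 and 387 CPM, against 0 in E10.5 replicates 1 and 2 and at most 0.704 CPM at E12.5. The other pituitary transcripts Pomc, Prl and Cga were also highest in these E10.5 libraries, at 15.6 and 5.27 CPM for Pomc (these genes were chosen after the level of Gh was seen). The fall of Gh across the stages is thus carried by 2 libraries and is read no further.

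The tissue label was checked against markers. Cardiomyocyte transcripts were abundant in every library (Actc1 between 7618 and 8892 CPM, Tnnt2 between 2409.7 and 4711 CPM). Liver albumin (Alb), lung Nkx2-1 and the skeletal muscle factor Myod1 were at or under 0.133 CPM in all 8. Afp, a gene of the fetal liver and yolk sac, measured between 0.0265 and 3.36 CPM at E10.5 and between 0.0541 and 0.363 CPM at E12.5, and Dlx5, a gene of the pharyngeal arches, between 0.120 and 0.236 CPM and between 0.528 and 0.636 CPM. The share of counts from the mitochondrial genome went from 2.77 ± 0.334% at E10.5 to 3.51 ± 0.237% at E12.5, and that from globin genes 1.19 ± 0.331% and 3.52 ± 1.47%. Neither share overlapped between the stages (exact two-sided permutation test, p = 0.0286 for each, the smallest that 4 against 4 libraries can give). The ranges nearly met. The highest E10.5 and lowest E12.5 values were 3.17% and 3.26% for the mitochondrial share and 1.58% and 1.62% for globin. The lowest globin share at E12.5 was that of the macrophage-low library. In bulk tissue, more cells of a type and more RNA per cell cannot be told apart.

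Of 18885 genes tested, 7181 (38.0%) passed the threshold: 3772 rose (20.0%) and 3409 fell (18.1%). The counts in each direction were similar but their sizes were not. At least 2-fold changes numbered 1253 among the genes that rose and 385 among those that fell, and at least 8-fold changes 120 against 18. The libraries of the stages did not overlap for 7221 genes (38.2%). The median change was 0.680 on the log2 scale for genes that rose and -0.408 for genes that fell. Protein-coding genes passed more often (43.3% of 15396) than lincRNAs (20.9% of 632) or processed pseudogenes (5.79% of 760). All 17 snoRNA genes that passed, of 87 tested, fell.

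**Figure D1:**
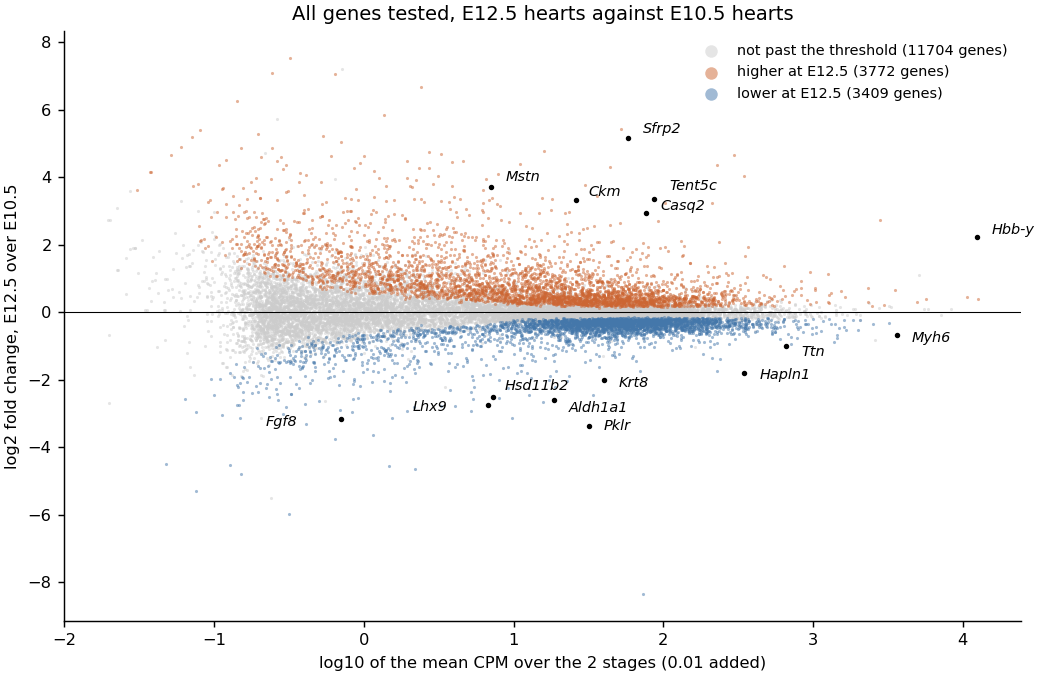
Each point is a gene; the x axis is the log10 of its mean CPM over both stages (0.01 added) and the y axis its log2 fold change, E12.5 over E10.5. Orange points (3772) rose, blue points (3409) fell and grey points did not pass; the orange cloud reaches farther from 0 than the blue one, and genes described in the text are named.

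Among the largest rises were those of elastic fibre and matrix genes. Fbln5, whose protein helps to assemble elastic fibres, measured 1.61, 1.27, 2.97 and 3.65 CPM at E10.5 and 113, 88.0, 106 and 103 CPM at E12.5. The levels of Eln, the elastin gene, were 15.7, 16.2, 30.3 and 29.2 CPM at E10.5 and 564, 516, 593 and 609 CPM at E12.5, and those of Lox, an enzyme that crosslinks collagen and elastin, 4.73, 4.79, 2.86 and 3.80 CPM at E10.5 and 54.3, 58.1, 54.1 and 55.6 CPM at E12.5. For Mgp, a small matrix protein, they were 0.707, 0.722, 1.27 and 1.86 CPM at E10.5 and 37.2, 29.0, 30.1 and 26.1 CPM at E12.5. In each of these genes every E12.5 library was many times above every E10.5 library. The Wnt antagonist Sfrp2 stood at 2.76, 1.52, 4.48 and 3.96 CPM at E10.5 and 154, 95.9, 101.2 and 100.9 CPM at E12.5, a 35.7-fold rise (log2 fold change 5.16 ± 0.284, edgeR adjusted p = 3.64e-09). All E12.5 libraries were far above all E10.5 libraries, and replicate 1 was the highest. Mstn, which encodes the muscle growth inhibitor myostatin, rose from 0.999 ± 0.203 to 13.1 ± 1.98 CPM (log2 fold change 3.70 ± 0.241), and Tent5c, a poly(A) polymerase gene, from 15.4 ± 1.37 to 159 ± 46.5 CPM. The interferon-inducible GTPase Iigp1 measured 0.950, 0.674, 1.51 and 0.892 CPM at E10.5 and 21.2, 19.9, 20.7 and 22.2 CPM at E12.5, with no overlap and little spread within E12.5, and Slfn14, a gene of platelet and red cell formation, rose from 1.25 ± 0.155 to 13.1 ± 3.94 CPM. Tnxb, the gene of the matrix glycoprotein tenascin-X, rose from 0.930 ± 0.306 to 11.5 ± 3.59 CPM. Since the stages did not overlap in these genes, their direction within both kinds of library was fixed in advance, and only the size could differ. The log2 fold change of Sfrp2 was 4.79 within the macrophage-high libraries and 5.55 within the macrophage-low libraries. That of Tent5c was 3.47 within the macrophage-high libraries and 2.70 within the macrophage-low libraries.

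The genes with the largest falls were of several kinds. The LIM-homeobox factor Lhx9 measured 11.3, 12.97, 11.03 and 11.4 CPM at E10.5 and 1.29, 1.57, 2.07 and 2.06 CPM at E12.5 (log2 fold change -2.74 ± 0.212, adjusted p = 9.17e-09). Prtg and Igdcc3, related receptors of the immunoglobulin superfamily found in early embryos, fell from 57.1 ± 3.98 to 10.52 ± 1.04 CPM and from 31.02 ± 5.66 to 6.69 ± 0.482 CPM. Car4, a membrane carbonic anhydrase, fell from 13.6 ± 0.697 to 2.32 ± 0.243 CPM, and Hsd11b2, the enzyme that inactivates glucocorticoids, from 12.3 ± 2.23 to 2.15 ± 0.259 CPM. Pklr, the liver and red cell pyruvate kinase, fell from 58.1 ± 9.83 to 5.53 ± 5.54 CPM; 21.97% of its exon length overlaps Hcn3, and E12.5 replicate 3, at 13.8 CPM, was well above the other E12.5 libraries. The fall of Prtg missed the threshold within the macrophage-low libraries, where its log2 fold change was -2.32. The skeletal calcium pump Atp2a1 fell from 15.2 ± 2.38 to 3.17 ± 0.952 CPM, with 21.9% of its exons overlapping Rabep2. The lists below are described by how many of their tested members passed, to be read against the 20.0% of all genes that rose and the 18.1% that fell.

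**Figure D2:**
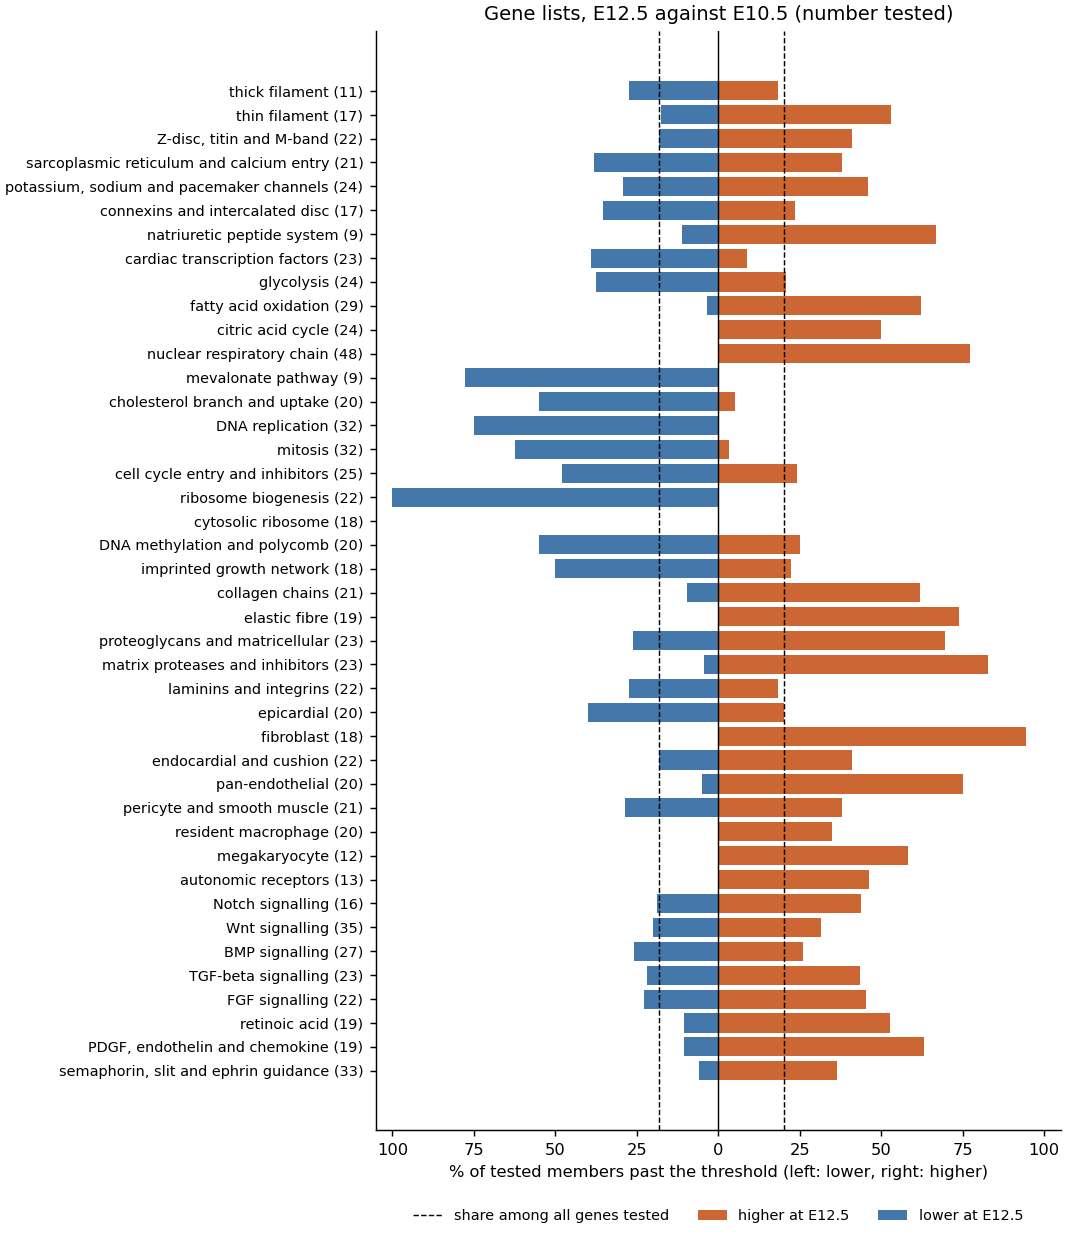
Bars give, for 42 gene lists with the number of tested members in brackets, the percentage of members that rose (orange, right) and fell (blue, left); dashed lines mark 20.0% and 18.1%, the shares among all genes tested. Respiratory chain, matrix protease and fibroblast lists lie mostly to the right, and ribosome biogenesis, replication and mevalonate lists to the left.

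Contractile genes moved in both directions, to a different extent in each part of the sarcomere. Of 11 thick filament genes 2 rose and 3 fell (median log2 fold change -0.03, 0.02 within the macrophage-high and -0.03 within the macrophage-low libraries), and the summed level of the list ranged from 17859 to 19826 CPM at E10.5 and from 18780 to 20208 CPM at E12.5. The members differed from one another. Myh6, the alpha myosin heavy chain, stood at 4039.8, 4915, 4405 and 4436 CPM at E10.5 and 2833, 2636, 2346 and 3347 CPM at E12.5 and fell (log2 fold change -0.67 ± 0.145, adjusted p = 0.00136), while Myh7, the beta chain, did not pass (5283 ± 744 CPM at E10.5 and 5673 ± 323 CPM at E12.5). The ventricular light chains Myl2 and Myl3 rose from 1761 ± 193 to 2921 ± 386 CPM and from 1200.0 ± 148 to 1860.5 ± 250.3 CPM. Myl7, the atrial regulatory light chain, fell from 1845 ± 242 to 1369 ± 173 CPM, a call that was lost without E10.5 replicate 4, without E12.5 replicate 1 and within the macrophage-low libraries. Ratios of paralogues within a library, which do not depend on scaling, show the shift directly. The ratio of Myl2 to Myl7, per kilobase of exon, took the values 0.287, 0.303, 0.277 and 0.291 at E10.5 and 0.802, 0.669, 0.632 and 0.510 at E12.5, a 2.23-fold rise, and that of Myh6 to Myh7 took the values 1.04, 0.988, 1.12 and 1.21 at E10.5 and 0.639, 0.629, 0.544 and 0.701 at E12.5. The heavy chains were near parity at E10.5, and Myh6 was the lesser of the pair in every E12.5 library. Over 26 such pairs, 16 ratios rose, 5 fell and 5 did not pass (exact two-sided permutation test, p = 0.0286 for each of the 21 that passed, the smallest that 4 against 4 libraries can give, and 0.0354 after Benjamini-Hochberg adjustment over the pairs).

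Of 17 thin filament genes 9 rose and 3 fell (median log2 fold change 0.19, 0.17 within the macrophage-high and 0.18 within the macrophage-low libraries). Their summed level went from between 16538 and 18232 CPM to between 19296 and 21204 CPM. Tnnt2, the cardiac troponin T, rose from 2759 ± 347 to 4312 ± 509 CPM and Tnni3, the adult cardiac troponin I, from 285 ± 38.5 to 449.9 ± 59.1 CPM. The slow skeletal troponin T, Tnnt1, rose more (60.1, 61.0, 67.3 and 68.4 CPM at E10.5 and 211, 199.8, 221 and 177 CPM at E12.5), as did Nrap, a scaffold of myofibril assembly, from 33.0 ± 5.204 to 111 ± 10.9 CPM. Acta1, skeletal alpha-actin, fell from 358 ± 21.6 to 229.9 ± 15.2 CPM, and Nebl, the cardiac nebulette, from 883 ± 118 to 446 ± 62.3 CPM. Cardiac alpha-actin itself, Actc1, did not pass (8094 ± 336 CPM at E10.5 and 8582 ± 419 CPM at E12.5). Tnni1, the fetal troponin I, was still the more abundant form at E12.5: the ratio of Tnni3 to Tnni1 went up 1.29-fold and stayed under 1 in all libraries. Acta2, smooth muscle actin, which the early myocardium also makes, fell to a 1.94-fold lower ratio to Actc1.

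In the Z-disc, titin and M-band list 9 of 22 rose and 4 fell. Titin, Ttn, measured 996, 963, 846 and 729 CPM at E10.5 and 296, 602, 376 and 482 CPM at E12.5 (log2 fold change -1.01 ± 0.275, adjusted p = 0.00954), and E12.5 replicate 1 was the lowest. Its transcript is the longest of the sarcomere, so its CPM also reflects length, and its call was lost within the macrophage-high libraries at a log2 fold change of -0.893. Myoz2, a calcineurin-binding Z-disc protein, rose 3.69-fold from 28.0 ± 2.60 to 103 ± 6.55 CPM, Tcap, the titin cap, from 40.7 ± 2.86 to 66.2 ± 2.70 CPM, and the M-band gene Myom2 from 1.02 ± 0.513 to 4.89 ± 0.710 CPM. The stretch-responsive Ankrd1 rose from 589 ± 33.1 to 945 ± 115 CPM, and Pdlim5 fell from 393 ± 35.7 to 286 ± 18.1 CPM while its relative Pdlim3 rose from 145 ± 4.01 to 222 ± 12.1 CPM.

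Calcium handling genes moved in both directions in equal number (8 rose and 8 fell of 21). Casq2, cardiac calsequestrin, which stores calcium in the sarcoplasmic reticulum, measured 17.3, 17.5, 17.3 and 18.6 CPM at E10.5 and 159, 132, 115 and 134 CPM at E12.5 (log2 fold change 2.93 ± 0.192, adjusted p = 7.86e-09). The E10.5 libraries were nearly alike and every E12.5 library was far above them. Its skeletal counterpart Casq1 fell from 296 ± 26.8 to 223 ± 18.03 CPM. Sln, the small inhibitor of the calcium pump in atria, rose 10.1-fold from 1.24 ± 0.638 to 12.4 ± 1.76 CPM. The pump Atp2a2 stood at 2222 ± 38.2 CPM at E10.5 and 1900.0 ± 171 CPM at E12.5 and passed as lower (log2 fold change -0.23 ± 0.0717), a call lost without E12.5 replicate 1 or 3 and within the macrophage-low libraries. Among calcium channels, the T-type gene Cacna1g rose (6.56, 4.50, 5.01 and 4.41 CPM at E10.5 and 22.05, 27.8, 19.6 and 19.7 CPM at E12.5) and its relative Cacna1h fell from 209.8 ± 21.98 to 134 ± 20.3 CPM. The auxiliary subunit Cacna2d1 rose from 41.2 ± 4.15 to 59.0 ± 4.08 CPM and Cacna2d2 fell from 296 ± 15.1 to 157 ± 26.1 CPM, while the L-type gene Cacna1d fell from 36.2 ± 1.88 to 21.5 ± 3.30 CPM and Cacna1c did not pass (133 ± 17.1 CPM at E10.5 and 114 ± 14.6 CPM at E12.5).

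Of 24 potassium, sodium and pacemaker channel genes 11 rose and 7 fell (median log2 fold change 0.48, 0.32 within the macrophage-high and 0.53 within the macrophage-low libraries). The sodium channel subunit Scn4b measured 7.58, 7.89, 9.83 and 9.26 CPM at E10.5 and 1.65, 1.78, 1.79 and 1.48 CPM at E12.5 and fell by 2.36 on the log2 scale. Both subunits of the slow delayed rectifier rose, Kcnq1 from 8.80 ± 0.991 to 17.6 ± 1.09 CPM and Kcne1 from 15.7 ± 0.602 to 36.3 ± 3.99 CPM, as did the background channel Kcnk3 from 47.3 ± 5.93 to 82.5 ± 4.76 CPM. Kcnj5, a subunit of the acetylcholine-gated channel, fell from 167 ± 8.15 to 114 ± 13.2 CPM. For the ATP-sensitive channel, the pore subunit Kcnj8 rose from 1.09 ± 0.225 to 4.10 ± 0.324 CPM and the regulatory subunit Abcc9 fell from 151 ± 23.0 to 93.8 ± 17.4 CPM. Among gap junction genes, Gja1 (connexin 43 of working myocardium) rose from 194 ± 26.7 to 335 ± 17.7 CPM, and the chamber and arterial connexin Gja5 from 143 ± 9.10 to 198 ± 20.2 CPM. The call of Gja5 and that of Abcc9 were lost within the macrophage-low libraries. Gjc1, the early connexin 45, did not pass (73.3 ± 4.15 CPM at E10.5 and 71.6 ± 1.65 CPM at E12.5), and the ratio of Gja1 to Gjc1 went up 1.78-fold. Desmosomal Dsp and Dsc2 fell from 649 ± 72.4 to 412 ± 66.4 CPM and from 85.3 ± 4.27 to 54.9 ± 7.56 CPM, and the tight junction scaffold Tjp1 from 204 ± 16.3 to 142 ± 22.6 CPM.

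**Figure D3:**
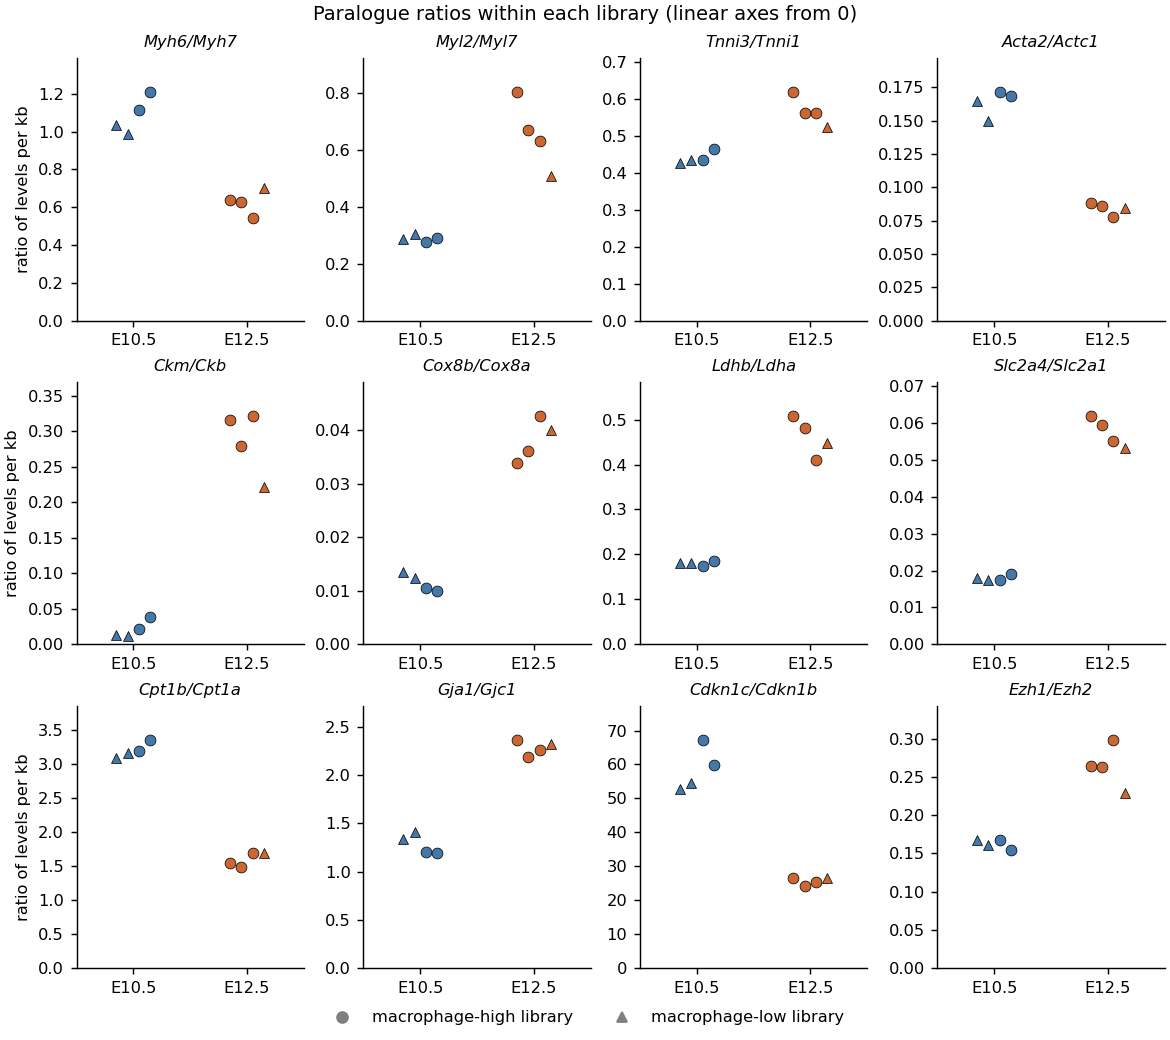
Ratio of the levels of 2 paralogues per kilobase of exon in each library (y axes linear from 0; x axis, stage), with circles for macrophage-high and triangles for macrophage-low libraries. The 12 pairs shown are all from the 21 of 26 that passed, and with 4 against 4 libraries a pair passes only without overlap. Of the ratios shown, 8 are higher at E12.5 and 4 (Myh6/Myh7, Acta2/Actc1, Cpt1b/Cpt1a and Cdkn1c/Cdkn1b) are lower.

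Receptors that let the heart respond to nerves and hormones were among the genes that rose. Of 13 autonomic receptor and G protein genes tested 6 rose and none fell. Adrb1, the main beta receptor of heart muscle, measured 3.43, 3.56, 4.96 and 4.49 CPM at E10.5 and 11.02, 10.2, 9.67 and 9.66 CPM at E12.5 (log2 fold change 1.30 ± 0.143), and every E12.5 library was above every E10.5 library. Chrm2, the muscarinic receptor that slows the beat, rose from 7.56 ± 1.96 to 19.1 ± 2.77 CPM. Of the natriuretic peptide system 6 of 9 rose and 1 fell. Nppa, the atrial peptide, rose 2.21-fold (702, 722, 807 and 900.5 CPM at E10.5 and 1868, 1529, 1994 and 1543 CPM at E12.5); 61.5% of its exon length overlaps Gm13054, so some reads may be counted there. Nppb, the ventricular peptide, rose from 127 ± 11.04 to 209.9 ± 57.8 CPM, the receptors Npr1 and Npr2 rose from 16.6 ± 1.32 to 22.04 ± 2.34 CPM and from 17.8 ± 0.895 to 28.9 ± 3.46 CPM, and Mme, the neprilysin that degrades the peptides, fell from 39.4 ± 3.73 to 23.3 ± 2.503 CPM.

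**Figure D4:**
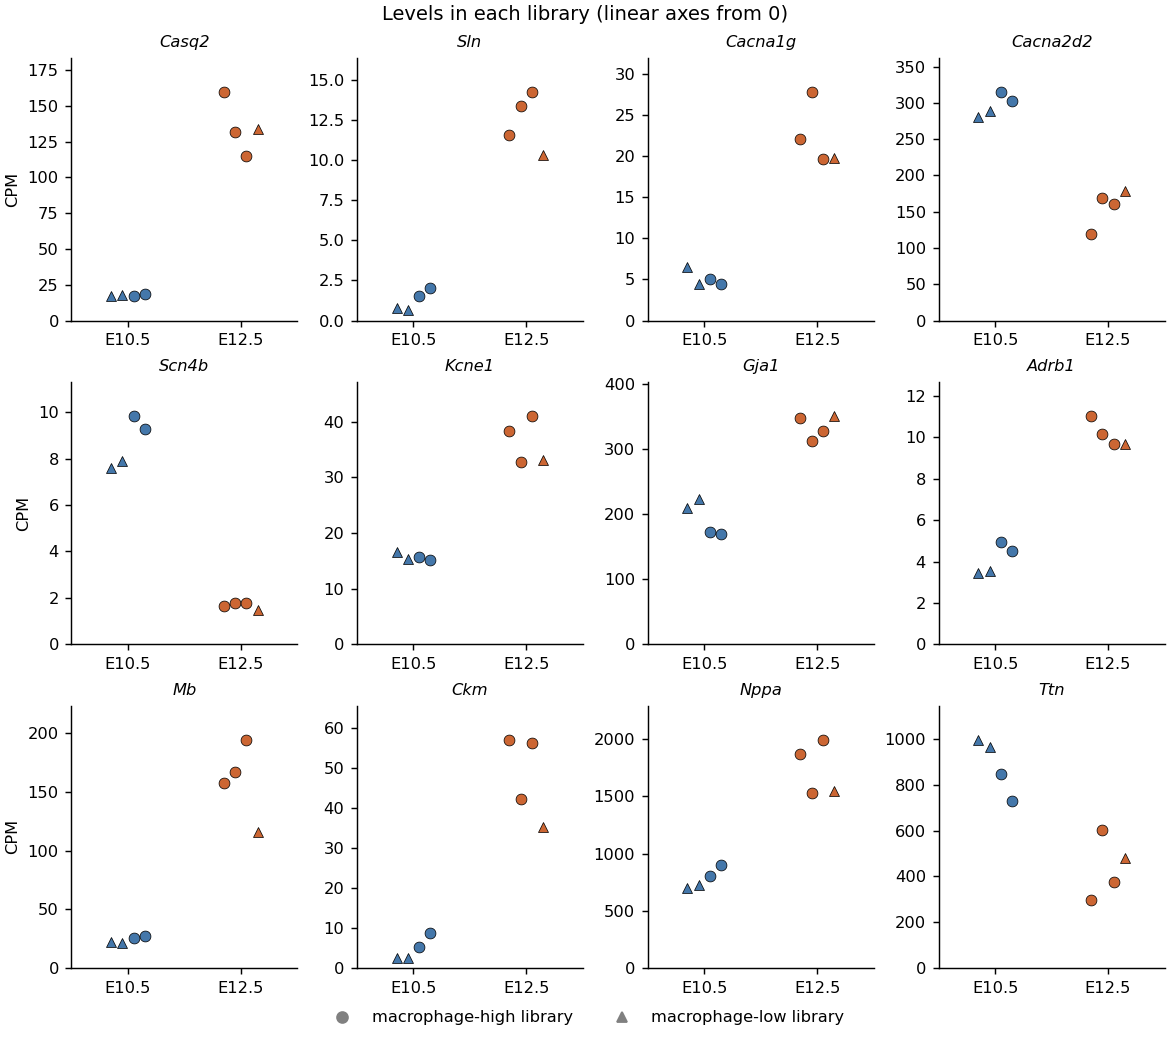
CPM of 12 genes of calcium handling, conduction, hormone response, oxygen storage and the sarcomere in each library (linear y axes from 0; circles macrophage-high, triangles macrophage-low libraries). The stages do not overlap in any panel, which also held for 3257 of all 3772 genes that rose and 2993 of all 3409 that fell. Cacna2d2, Scn4b and Ttn are lower at E12.5 and the other 9 are higher.

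Transcription factors of the cardiac programme fell more often than they rose (9 and 2 of 23, with 4 rising within the macrophage-low libraries). Gata5, an early cardiac and endocardial factor, fell from 93.6 ± 2.68 to 45.9 ± 6.11 CPM, Hand1, a factor of the outer curvature and left ventricle, from 62.5 ± 4.44 to 35.7 ± 4.72 CPM, and the serum response factor partner Myocd from 78.4 ± 4.88 to 51.1 ± 7.45 CPM. Gata6 and Hopx rose from 145 ± 4.17 to 179 ± 6.52 CPM and from 136 ± 10.1 to 167 ± 13.8 CPM. Of 15 second heart field genes, which mark progenitors that add to the poles of the tube, 4 rose and 5 fell (3 fell within the macrophage-low libraries). Fgf8 fell from 1.25 ± 0.549 to 0.136 ± 0.0201 CPM, Fgf10 from 3.56 ± 0.235 to 1.59 ± 0.341 CPM and Foxf1 from 0.973 ± 0.191 to 0.262 ± 0.106 CPM. Among those that rose was Foxc1, a forkhead factor of the arches and outflow, from 19.2 ± 1.75 to 34.4 ± 3.69 CPM. In the trabecular and chamber growth list 4 of 17 rose and 6 fell: the neuregulin receptor Erbb4 fell from 70.2 ± 7.81 to 37.5 ± 8.80 CPM, and Etv1, a factor of trabecular and fast-conducting muscle, rose from 26.0 ± 1.97 to 32.2 ± 3.01 CPM. Hey1, the atrial and endocardial Notch target, fell from 51.3 ± 0.258 to 26.6 ± 3.16 CPM while Hey2, its compact ventricular relative, rose from 72.8 ± 5.86 to 99.3 ± 4.81 CPM.

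Genes of oxidative metabolism rose widely. Of 48 nuclear genes of the respiratory chain 37 rose and none fell (median log2 fold change 0.39, 0.33 within the macrophage-high and 0.39 within the macrophage-low libraries), and of 24 citric acid cycle genes 12 rose and none fell. Of the respiratory chain genes 13 rose within the macrophage-high libraries alone and 42 within the macrophage-low libraries alone. The changes were small for most: Ndufv1 of complex I rose from 206 ± 6.54 to 288 ± 15.1 CPM. Larger rises were those of Idh2, a mitochondrial isocitrate dehydrogenase, from 575 ± 27.8 to 1085 ± 44.8 CPM and of Cox8b, the heart and muscle form of a cytochrome oxidase subunit, from 1.60 ± 0.166 to 7.73 ± 2.05 CPM. Pdk2 and Pdk4, kinases that switch off pyruvate dehydrogenase, rose from 27.4 ± 0.278 to 67.3 ± 3.76 CPM and from 19.8 ± 1.68 to 35.3 ± 3.18 CPM. Of 13 genes on the mitochondrial genome 6 rose, among them mt-Co1 from 10809 ± 1669 to 14309 ± 1396 CPM and mt-Nd4 from 1378 ± 122 to 1887 ± 123 CPM. In the fatty acid oxidation list, where 18 of 29 rose and 1 fell, the carrier Fabp3 rose from 109.8 ± 13.1 to 231 ± 17.3 CPM and the dehydrogenase Acadl from 149.7 ± 8.86 to 309.9 ± 20.7 CPM. The liver-type entry enzyme Cpt1a rose from 32.3 ± 5.34 to 60.1 ± 5.91 CPM, a call lost within the macrophage-low libraries. The muscle form Cpt1b did not pass (45.5 ± 6.86 CPM at E10.5 and 42.6 ± 5.46 CPM at E12.5, with 81.4% of its exons overlapping Gm44502), and its ratio to Cpt1a was 1.997-fold lower at E12.5.

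Glycolysis genes changed in both directions (5 rose and 9 fell of 24), with muscle paralogues gaining on general ones. Slc2a1, the early glucose transporter, measured 881, 984, 967 and 894 CPM at E10.5 and 431, 449, 534 and 525 CPM at E12.5 and fell (log2 fold change -0.94 ± 0.116, adjusted p = 3.46e-06), while the insulin-responsive Slc2a4 rose from 16.53 ± 0.618 to 27.5 ± 1.32 CPM. Slc2a1 remained the higher of the 2 in every library: the ratio of Slc2a4 to Slc2a1 per kilobase took the values 0.0178, 0.0173, 0.0175 and 0.0190 at E10.5 and 0.0619, 0.0594, 0.0552 and 0.0533 at E12.5. Ldhb, the heart form of lactate dehydrogenase, rose from 171 ± 5.11 to 367 ± 21.1 CPM, and its ratio to Ldha went up 2.55-fold. The ratio of Pgam2 to Pgam1 went up 1.88-fold and that of Eno3 to Eno1 1.68-fold, with Eno1 falling from 1732 ± 94.7 to 1246 ± 106 CPM. The creatine kinase pair moved in the same way: muscle Ckm measured 2.45, 2.53, 5.19 and 8.87 CPM at E10.5 and 57.0, 42.2, 56.3 and 35.3 CPM at E12.5 and brain-type Ckb fell from 218 ± 21.9 to 165 ± 13.5 CPM, so the ratio of Ckm to Ckb went up 14.9-fold. Ckb was still the more abundant form in every E12.5 library, where the ratio per kilobase lay between 0.222 and 0.321. Within E10.5 the macrophage-high libraries had more Ckm than the macrophage-low ones, and the log2 change of the ratio was 3.41 within the former and 4.15 within the latter. Myoglobin, Mb, which stores oxygen in muscle, rose from 24.2 ± 2.95 to 159 ± 32.5 CPM, with 27.6% of its exons overlapping Gm49540. The 5 ratios that did not pass were those of Rpl3l to Rpl3, Nppb to Nppa and Igf2bp2 to Igf2bp1 (BH-adjusted exact permutation p = 0.124 for each), Cox6a2 to Cox6a1 (p = 0.286) and Cox7a1 to Cox7a2 (p = 0.178).

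Enzymes of the mevalonate pathway, which makes the precursors of sterols and of lipid anchors on proteins and which the study's title names, fell. Of 9 tested 7 fell and none rose (median log2 fold change -0.40, -0.48 within the macrophage-high and -0.36 within the macrophage-low libraries). Hmgcs1, an early synthase of the pathway, measured 211, 212, 207 and 226 CPM at E10.5 and 156, 157, 152 and 158 CPM at E12.5 (log2 fold change -0.46 ± 0.0790, adjusted p = 1.41e-04). All E12.5 libraries were below all E10.5 libraries. Idi1, an isomerase further along, fell from 41.5 ± 2.92 to 26.7 ± 1.60 CPM. On the branch to cholesterol 11 of 20 fell and 1 rose (6 fell within the macrophage-low libraries). Sqle fell from 87.3 ± 2.29 to 61.1 ± 2.41 CPM, Lss from 29.6 ± 1.32 to 19.8 ± 1.41 CPM, Cyp51 from 98.2 ± 2.87 to 68.3 ± 2.54 CPM and Msmo1 from 55.0 ± 2.38 to 37.1 ± 1.23 CPM. The gene that rose was Abca1, the transporter that exports cholesterol, from 11.1 ± 1.71 to 18.7 ± 3.25 CPM. Srebf2, the factor that drives these genes, did not pass (239 ± 18.9 CPM at E10.5 and 198 ± 24.0 CPM at E12.5), although it passed as lower with library totals in place of TMM, with the 8 libraries alone, with the replicate block and without E12.5 replicate 4.

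Most genes of DNA replication and mitosis fell, by small amounts. In DNA replication 24 of 32 fell and none rose (median log2 fold change -0.35, -0.36 within the macrophage-high and -0.30 within the macrophage-low libraries), and in mitosis 20 of 32 fell and 1 rose (median log2 fold change -0.29, -0.30 within the macrophage-high and -0.18 within the macrophage-low libraries). Cdc6, which loads the replicative helicase, fell from 62.3 ± 4.81 to 36.2 ± 4.13 CPM and the helicase subunit Mcm5 from 181 ± 5.22 to 129 ± 7.92 CPM. Top2a, the topoisomerase of dividing chromosomes, fell from 502 ± 33.8 to 339 ± 33.3 CPM and Ect2, an exchange factor needed for cytokinesis, from 111 ± 9.70 to 80.7 ± 5.24 CPM. Genes that enter or brake the cycle differed among themselves (6 rose and 12 fell of 25). Cyclin D2, Ccnd2, fell from 764 ± 21.2 to 441 ± 10.1 CPM and cyclin E1, Ccne1, fell too (40.4, 41.9, 45.1 and 42.7 CPM at E10.5 and 29.4, 27.5, 26.8 and 29.4 CPM at E12.5). Among inhibitors, Cdkn1b, Cdkn2c and Cdkn2d rose, Cdkn2c most (8.68, 8.13, 8.08 and 8.001 CPM at E10.5 and 22.9, 20.1, 22.8 and 21.8 CPM at E12.5). Cdkn1c, the inhibitor from an imprinted cluster, fell from 1783 ± 100.4 to 1113 ± 70.3 CPM (30.7% of its exons overlap Gm44732), and its ratio to Cdkn1b dropped 2.27-fold. Mycn, the proto-oncogene of proliferating myocardium, fell from 80.5 ± 6.38 to 55.7 ± 7.12 CPM.

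Promoters of the replication and mitosis lists were searched for short motifs. RefSeq windows from 250 bases before to 50 bases after the start site (build GRCm38.p6) were available for 12869 of the 18885 genes tested. Where a gene had more than 1 window (2537 genes, among them Ect2), only the first listed was searched. The E2F motif (TTTCCCGC or TTTGGCGC, either strand) was in 10 of 25 replication promoters, against 2.81% of all windows, 4.04% of windows of genes that fell and 1.55% of genes that rose. The cell-cycle homology region (TTTGAA, either strand) was in 19 of 26 mitosis promoters against 12.2% of all windows, and CCAAT (either strand) in 21 of 26 against 38.1%. CCAAT was about as frequent in the Hox cluster list (8 of 10) and the cholesterol branch list (12 of 15), and less so in most other lists. No E2F match was found in the mitosis windows. A match describes letters, not a bound site. Shown are a pair of replication promoters with the E2F motif in capitals (Cdc6, chr11:98907901-98908200, plus strand; Mcm5, chr8:75109259-75109558, plus strand) and a pair of mitosis promoters with the cell-cycle homology region and CCAAT in capitals (Top2a, chr11:99024140-99024439, minus strand; Ect2, chr3:27153829-27154128, minus strand).
Cdc6: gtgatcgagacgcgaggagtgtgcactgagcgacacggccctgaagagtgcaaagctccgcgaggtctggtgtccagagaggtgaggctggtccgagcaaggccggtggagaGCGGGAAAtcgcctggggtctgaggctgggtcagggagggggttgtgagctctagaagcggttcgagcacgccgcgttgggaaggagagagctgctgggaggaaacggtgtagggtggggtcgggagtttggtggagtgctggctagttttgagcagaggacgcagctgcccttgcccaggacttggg
Mcm5: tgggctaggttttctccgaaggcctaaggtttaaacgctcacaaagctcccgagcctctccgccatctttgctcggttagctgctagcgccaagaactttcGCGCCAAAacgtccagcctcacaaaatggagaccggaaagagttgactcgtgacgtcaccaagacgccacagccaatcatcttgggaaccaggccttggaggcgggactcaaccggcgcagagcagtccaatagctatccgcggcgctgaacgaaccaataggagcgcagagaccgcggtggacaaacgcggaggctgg
Top2a: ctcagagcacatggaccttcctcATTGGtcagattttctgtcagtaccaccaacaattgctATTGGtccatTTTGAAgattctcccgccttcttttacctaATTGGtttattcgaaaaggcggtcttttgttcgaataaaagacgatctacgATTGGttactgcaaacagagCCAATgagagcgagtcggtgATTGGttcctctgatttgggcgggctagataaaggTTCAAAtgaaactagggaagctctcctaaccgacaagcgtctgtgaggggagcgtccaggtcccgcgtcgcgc
Ect2: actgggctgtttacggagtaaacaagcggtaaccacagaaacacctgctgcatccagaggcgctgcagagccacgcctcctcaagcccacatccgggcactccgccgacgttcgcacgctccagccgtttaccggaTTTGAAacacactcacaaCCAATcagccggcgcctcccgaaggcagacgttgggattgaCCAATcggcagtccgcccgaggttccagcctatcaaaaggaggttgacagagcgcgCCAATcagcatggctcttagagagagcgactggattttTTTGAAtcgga
The E2F match begins 138 bases before the start site in Cdc6 and 149 bases before it in Mcm5. Top2a holds 6 CCAAT matches and 2 matches of the cell-cycle homology region, and Ect2 holds 3 and 2.

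Contractile promoters were searched in the same way. The CArG box, the element read by serum response factor, was found in 2 of 14 thin filament windows and 2 of 11 thick filament windows, against 1.31% of all windows. Of these, Myl3 rose and Acta1 fell, both with the box in capitals at a similar distance (85 and 73 bases before the start site; Myl3, chr9:110763428-110763727, plus strand; Acta1, chr8:123894726-123895025, minus strand).
Myl3: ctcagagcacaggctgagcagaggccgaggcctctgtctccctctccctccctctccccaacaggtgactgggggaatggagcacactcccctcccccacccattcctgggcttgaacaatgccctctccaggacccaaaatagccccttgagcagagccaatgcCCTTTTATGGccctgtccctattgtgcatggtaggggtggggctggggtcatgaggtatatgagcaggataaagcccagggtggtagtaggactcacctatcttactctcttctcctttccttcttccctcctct
Acta1: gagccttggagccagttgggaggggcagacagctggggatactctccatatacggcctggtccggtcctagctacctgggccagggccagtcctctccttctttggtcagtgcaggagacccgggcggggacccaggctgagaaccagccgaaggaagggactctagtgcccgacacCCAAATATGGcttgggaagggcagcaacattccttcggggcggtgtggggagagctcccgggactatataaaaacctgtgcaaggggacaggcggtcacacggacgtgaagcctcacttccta
Windows of genes that rose at least 2-fold had fewer CpG steps (median 3.01% of positions) than all windows (6.35%), and the TATA box (TATAAA, given strand) was in 8.77% of them against 4.83%. Windows of genes that fell at least 2-fold were alike in this, with 3.18% and 11.4%. The ETS motif CCGGAAGT (either strand) was in 3.13% of windows of genes that rose and 10.2% of those that fell, with 7.14% over all. Among genes that changed at least 2-fold it was in 0.361% of windows of those that rose and 1.32% of those that fell.

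Growth and RNA-binding genes of the early embryo also fell. All 22 ribosome biogenesis genes tested fell, with Nolc1, a nucleolar chaperone, going from 118 ± 4.80 to 70.8 ± 6.12 CPM and Npm1, nucleophosmin, from 1253 ± 58.7 to 826 ± 48.4 CPM. None of 18 cytosolic ribosomal protein genes passed in either direction (edgeR; Rps2 stood at 1729 ± 177 CPM at E10.5 and 1634 ± 333 CPM at E12.5). Lin28a and Lin28b, which block let-7 maturation, fell, Lin28a at 15.05, 13.8, 21.4 and 19.6 CPM at E10.5 and 1.73, 2.60, 1.82 and 1.82 CPM at E12.5 and Lin28b from 29.4 ± 1.22 to 8.72 ± 0.246 CPM. Trim71, which let-7 represses, measured 27.3, 25.4, 27.6 and 28.5 CPM at E10.5 and 2.82, 4.68, 5.199 and 4.49 CPM at E12.5 and fell, as did Arid3b, a target of let-7, from 96.3 ± 3.75 to 35.5 ± 2.91 CPM and Sall4 from 12.7 ± 1.10 to 3.17 ± 0.751 CPM. Of 17 muscle splicing regulators 8 fell and none rose, Celf1 from 369 ± 9.45 to 267 ± 7.98 CPM and Mbnl1 from 90.8 ± 7.71 to 68.7 ± 2.70 CPM. Of 20 DNA methylation and polycomb genes 11 fell and 5 rose (6 fell within the macrophage-high libraries). The maintenance methyltransferase Dnmt1 fell from 319.5 ± 28.0 to 210.0 ± 25.8 CPM and its partner Uhrf1 from 181 ± 9.89 to 118 ± 9.04 CPM. Chromobox genes of polycomb complexes rose, Cbx6 from 79.7 ± 5.77 to 157 ± 7.87 CPM and Cbx7 from 1.72 ± 0.272 to 5.36 ± 1.96 CPM, and the ratio of Ezh1 to Ezh2 went up 1.62-fold. Among imprinted growth genes, where 9 of 18 fell (5 within the macrophage-low libraries) and 4 rose, Igf2r fell from 2346 ± 249 to 1636 ± 235 CPM and Peg3 from 884 ± 103 to 534 ± 83.8 CPM, while the non-coding H19 rose from 9074 ± 211 to 12372 ± 1552 CPM and Igf1 from 56.0 ± 4.36 to 99.5 ± 11.6 CPM. Of 14 long non-coding RNAs, Neat1, the scaffold of paraspeckles, rose 3.68-fold from 12.7 ± 2.14 to 46.7 ± 22.1 CPM, and Kcnq1ot1 fell from 30.5 ± 4.06 to 15.7 ± 0.978 CPM.

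Matrix genes moved in both directions. The jelly that fills the early endocardial cushions is built on hyaluronan and the proteoglycan versican, and genes of its parts were among those that fell (they were picked for their fall and form no list of their own). Hapln1, which links hyaluronan to versican, measured 575, 559, 485 and 539 CPM at E10.5 and 152, 162, 145 and 165 CPM at E12.5 (log2 fold change -1.79 ± 0.167, adjusted p = 3.25e-07). Vcan fell from 883 ± 127 to 432 ± 43.7 CPM, the hyaluronan synthase Has2 from 52.7 ± 5.30 to 21.5 ± 3.42 CPM, fibronectin, Fn1, from 1816 ± 277 to 1068 ± 206 CPM and tenascin C, Tnc, from 114 ± 14.9 to 62.5 ± 9.05 CPM. Col2a1, a cartilage collagen of cushion mesenchyme, fell from 354 ± 20.0 to 105.4 ± 13.1 CPM. In none of these 6 genes did the stages overlap, which also held for 2993 of all 3409 genes that fell. Other members of the same lists rose: 16 of 23 proteoglycan and matricellular genes, where 6 fell, and 13 of 21 collagen chains, where 2 fell. Lum, the collagen-binding lumican, measured 5.92, 4.21, 3.07 and 3.65 CPM at E10.5 and 103, 83.5, 73.1 and 78.1 CPM at E12.5, and Ogn, osteoglycin, rose from 0.793 ± 0.257 to 12.3 ± 2.18 CPM. Thbs2, thrombospondin 2, rose from 2.67 ± 0.144 to 28.1 ± 5.05 CPM, and Col6a3, Col14a1 and Col15a1 from 3.17 ± 0.267 to 32.7 ± 4.72 CPM, from 2.52 ± 0.364 to 16.2 ± 3.01 CPM and from 1.67 ± 0.324 to 11.7 ± 2.09 CPM. Col3a1, a fibril-forming chain of soft tissues, rose from 361 ± 24.7 to 927 ± 102 CPM. Among elastic fibre genes, of which 14 of 19 rose, Ltbp3 and Mfap4 rose from 14.3 ± 1.52 to 88.9 ± 12.46 CPM and from 6.09 ± 1.21 to 65.9 ± 13.2 CPM. Of 23 matrix proteases and inhibitors 19 rose and 1 fell. Adamts8 rose from 3.88 ± 0.709 to 31.7 ± 5.08 CPM, the procollagen peptidase Adamts2 from 3.39 ± 0.670 to 26.0 ± 1.36 CPM and the inhibitor Timp2 from 73.5 ± 6.92 to 137 ± 10.4 CPM. Laminins and integrins moved both ways (4 rose and 6 fell of 22): Lama1 fell from 17.4 ± 1.77 to 5.18 ± 0.925 CPM and Lama2 rose from 16.3 ± 1.18 to 32.9 ± 7.18 CPM, Itga4 fell (108, 117, 99.1 and 102 CPM at E10.5 and 28.2, 37.1, 26.1 and 37.5 CPM at E12.5), Itga6 fell from 458 ± 19.2 to 279.5 ± 27.6 CPM, and Itgb5 rose from 78.3 ± 1.72 to 161 ± 6.76 CPM. The call of Itga4 was lost within the macrophage-low libraries.

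**Figure D5:**
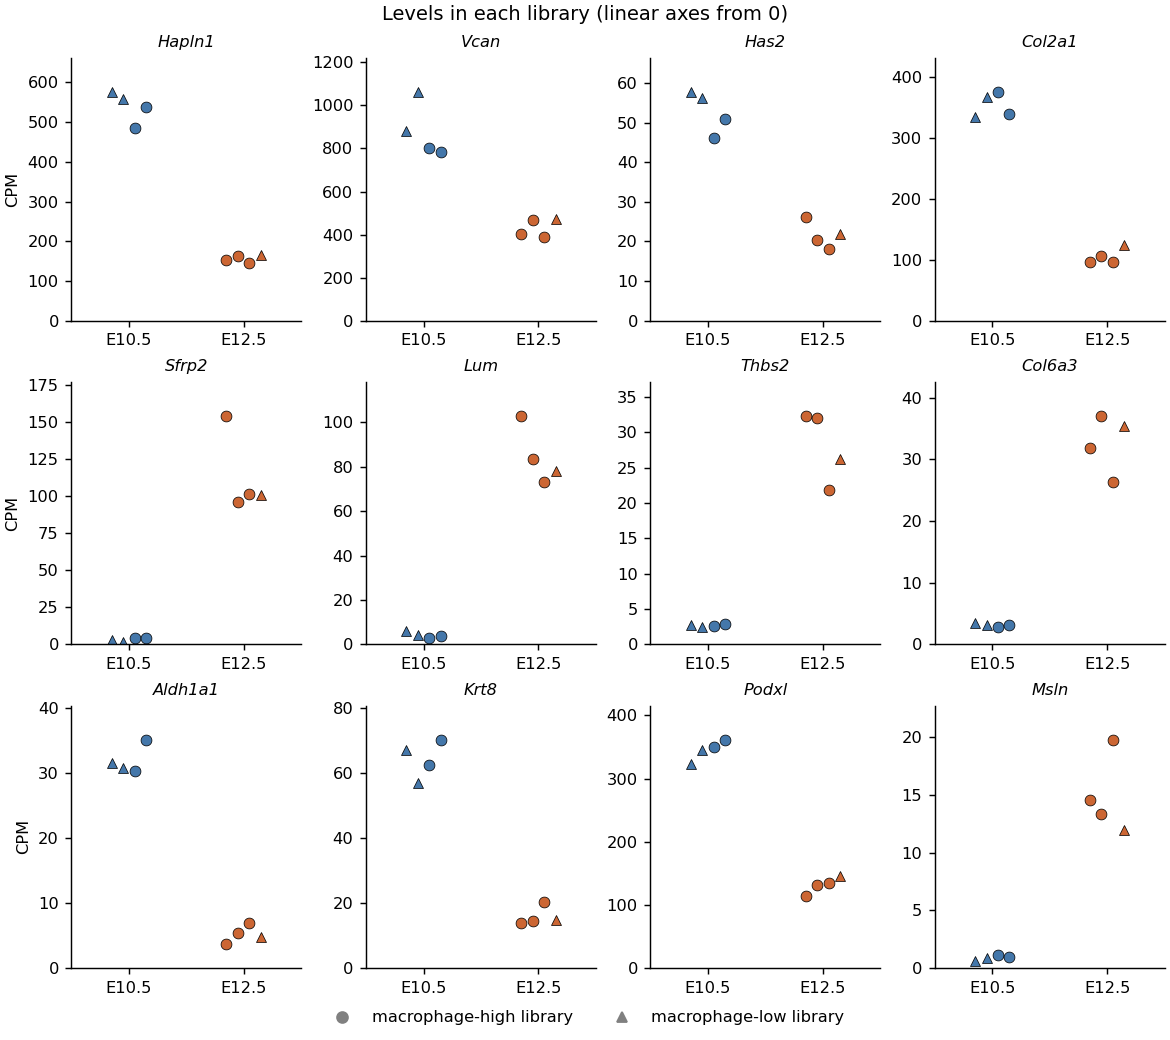
CPM of 12 matrix and epicardial genes in each library (linear y axes from 0; circles macrophage-high, triangles macrophage-low libraries). The upper row holds cushion matrix genes, all lower at E12.5; the middle row matrix and mesenchymal genes, all higher; in the lower row Aldh1a1, Krt8 and Podxl are lower and Msln is higher.

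Epicardial genes split. Of 20 tested 4 rose and 8 fell (median log2 fold change 0.10, 0.18 within the macrophage-high and -0.05 within the macrophage-low libraries). Within the macrophage-low libraries 2 rose and 4 fell. Aldh1a1 measured 31.4, 30.8, 30.3 and 35.05 CPM at E10.5 and 3.73, 5.46, 6.92 and 4.83 CPM at E12.5 (log2 fold change -2.60 ± 0.324, adjusted p = 1.53e-05), and the epithelial keratin Krt8 and the surface sialomucin Podxl fell from 64.1 ± 5.82 to 15.8 ± 2.97 CPM and from 345 ± 16.3 to 132 ± 13.3 CPM. Msln, mesothelin, rose from 0.881 ± 0.235 to 14.9 ± 3.40 CPM and the mucin gene Muc16 from 0.999 ± 0.419 to 3.50 ± 1.24 CPM. The call of Aldh1a1 was lost within the macrophage-low libraries, at a log2 fold change of -2.68. All but 1 of 18 fibroblast genes rose, among them Gsn, gelsolin, from 40.4 ± 0.914 to 150.2 ± 16.45 CPM and Pdgfrb from 30.3 ± 2.64 to 59.4 ± 2.59 CPM. Of 22 endocardial and cushion genes 9 rose and 4 fell (2 fell within the macrophage-low libraries). The mesenchymal factors Prrx1 and Snai2 rose from 9.87 ± 1.04 to 25.7 ± 3.38 CPM and from 8.53 ± 1.39 to 16.1 ± 1.61 CPM, and Msx2, a BMP target in cushions, fell from 14.7 ± 0.913 to 8.42 ± 0.703 CPM.

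Vessel genes rose. Of 20 pan-endothelial genes 15 rose and 1 fell (median log2 fold change 0.43, 0.42 within the macrophage-high and 0.49 within the macrophage-low libraries). The junction gene Cldn5 rose from 2.09 ± 0.755 to 7.30 ± 0.152 CPM, Robo4 from 3.11 ± 0.212 to 9.30 ± 1.37 CPM and Mmrn2 from 40.1 ± 1.72 to 70.1 ± 5.22 CPM. The gene that fell was Etv2, the factor that specifies endothelium, from 2.42 ± 0.227 to 0.629 ± 0.127 CPM. Of 19 coronary and arterial genes 11 rose and 2 fell, with Cxcl12 going from 80.3 ± 7.26 to 223 ± 11.95 CPM and the tip-cell gene Esm1 from 0.147 ± 0.0302 to 2.36 ± 0.429 CPM. The lymphatic growth factor genes Vegfc and Vegfd rose from 13.6 ± 0.792 to 24.7 ± 1.23 CPM and from 0.784 ± 0.217 to 4.25 ± 0.501 CPM. In the pericyte and smooth muscle list 8 of 21 rose and 6 fell. Mcam and Ndufa4l2 rose from 162 ± 18.2 to 362 ± 28.6 CPM and from 1.57 ± 0.226 to 7.90 ± 1.93 CPM, and smooth muscle Acta2 and Lmod1 fell from 1793 ± 103 to 979 ± 69.4 CPM and from 27.7 ± 3.26 to 6.89 ± 0.546 CPM. Of 19 PDGF, endothelin and chemokine genes 12 rose and 2 fell, Pdgfb, which recruits mural cells, from 3.79 ± 0.469 to 11.2 ± 1.62 CPM and the CXCL12 scavenger receptor Ackr3 from 37.2 ± 2.53 to 116 ± 15.97 CPM.

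Blood cell transcripts differed between libraries as well as stages. Of 20 resident macrophage genes 7 rose and none fell (14 rose within the macrophage-low libraries). Csf1r, the receptor macrophages need to survive, measured 3.29, 3.58, 9.30 and 7.004 CPM at E10.5 and 23.6, 24.9, 20.1 and 21.4 CPM at E12.5, and the complement gene C1qa and the chemokine receptor Cx3cr1 rose from 0.818 ± 0.583 to 6.67 ± 0.754 CPM and from 1.19 ± 0.155 to 8.80 ± 0.459 CPM. The list's median depended on the kind of library, at 0.61 within the macrophage-high and 2.49 within the macrophage-low libraries, while the log2 fold change of Csf1r was 1.48 within the macrophage-high libraries and 2.64 within the macrophage-low libraries. None of the 8 activated macrophage transcripts passed with edgeR, and their part in the other results was not tested. Megakaryocytes are the parent cells of platelets, and of 12 of their genes 7 rose and none fell, Itga2b, the platelet integrin, from 27.0 ± 1.41 to 50.4 ± 15.4 CPM and Gp9 from 1.70 ± 0.597 to 5.14 ± 2.27 CPM. In primitive red cell genes 5 of 15 rose and 1 fell. The list turned with the kind of library: 3 rose and 1 fell within the macrophage-high libraries (median log2 fold change 0.62), and 4 rose and 8 fell within the macrophage-low libraries (median -0.58). The embryonic Hbb-y measured 3560.0, 3651, 5467 and 4741 CPM at E10.5 and 27785, 17889.7, 26135 and 9680.1 CPM at E12.5, the transferrin receptor Tfrc fell from 260.2 ± 17.2 to 109 ± 29.4 CPM and the haem enzyme Fech rose from 117 ± 6.50 to 197 ± 42.7 CPM. Hbb-bh1, the earliest beta-type globin, did not pass (2579, 2520.1, 4289.8 and 3829.8 CPM at E10.5 and 955, 1428, 4289 and 743 CPM at E12.5), with E12.5 libraries spread from under the lowest E10.5 library to near the highest. It passed as lower within the macrophage-low libraries, with 1 library at E12.5. The call of Hbb-y was lost within the macrophage-high libraries. The adult alpha globin Hba-a1 rose from 726 ± 249 to 4837 ± 1988 CPM, and its ratio to the embryonic Hba-x went up 3.28-fold; near-identical globin copies can share reads, so these levels are uncertain.

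Signalling genes changed within each pathway in both directions. Of 35 Wnt genes 11 rose and 7 fell. The ligand Wnt2 fell from 27.4 ± 8.50 to 7.44 ± 1.06 CPM, a call lost within the macrophage-low libraries. Rspo3, which amplifies Wnt signals, fell from 34.5 ± 2.47 to 19.9 ± 0.640 CPM and the effector Tcf7 from 17.6 ± 0.755 to 9.86 ± 0.654 CPM. Among antagonists, Sfrp1 rose from 123 ± 5.71 to 314 ± 7.07 CPM and Wif1 from 0.347 ± 0.101 to 2.38 ± 0.355 CPM, beside Sfrp2, and the receptor Fzd1 rose from 53.9 ± 6.03 to 116 ± 11.9 CPM. Of 27 BMP genes 7 rose and 7 fell. The ligands Bmp2 and Bmp5 fell from 56.2 ± 2.81 to 32.5 ± 3.96 CPM and from 48.4 ± 4.97 to 24.7 ± 2.75 CPM (46.7% of the exons of Bmp5 overlap Gm26903), Bmp6 and Gdf6 rose from 11.9 ± 0.722 to 22.7 ± 0.643 CPM and from 8.09 ± 1.79 to 21.4 ± 2.69 CPM, and the antagonist Nog fell from 10.99 ± 2.21 to 4.99 ± 0.497 CPM. Of 23 TGF-beta genes 10 rose and 5 fell (2 fell within the macrophage-low libraries): the ligand Tgfb3 rose from 16.9 ± 2.09 to 36.6 ± 2.25 CPM and the co-receptor Tgfbr3 fell from 91.0 ± 7.24 to 57.3 ± 5.001 CPM. Of 22 FGF genes 10 rose and 5 fell, with Fgf1 and Fgf12 rising from 9.32 ± 2.05 to 20.6 ± 1.25 CPM and from 1.91 ± 0.118 to 7.46 ± 0.969 CPM.

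Retinoic acid genes rose in 10 of 19 cases and fell in 2. Dhrs3, the enzyme that returns retinal to retinol, rose from 4.09 ± 1.91 to 13.97 ± 3.94 CPM. Of the synthesising enzymes, Aldh1a2, the main embryonic one, rose from 28.3 ± 5.23 to 47.7 ± 6.56 CPM while Aldh1a1 fell, as given above; both calls were lost within the macrophage-low libraries. Of 16 Notch genes 7 rose and 3 fell, the ligand Jag1 falling from 70.7 ± 4.98 to 49.0 ± 4.61 CPM and the mural target Heyl rising from 5.73 ± 0.290 to 13.9 ± 0.715 CPM. In guidance 12 of 33 rose and 2 fell: Ntn4, a netrin of vessel walls, rose from 2.14 ± 0.156 to 14.2 ± 1.08 CPM, Sema3b from 10.1 ± 1.153 to 22.7 ± 2.76 CPM, and the receptor Plxna4 fell from 110.0 ± 8.74 to 71.6 ± 15.8 CPM. Of 19 Hippo pathway genes 7 rose and 5 fell (3 fell within the macrophage-high libraries). The nuclear partner Tead1 fell from 315 ± 35.5 to 222 ± 22.1 CPM, and Vgll3 and the target Ccn2 rose from 0.841 ± 0.137 to 3.76 ± 0.188 CPM and from 43.7 ± 7.07 to 112 ± 9.74 CPM. Of 15 hedgehog genes 4 rose and 3 fell, with the target Gli1 falling from 1.61 ± 0.242 to 0.680 ± 0.178 CPM and the co-receptor Boc rising from 11.1 ± 1.89 to 21.6 ± 1.67 CPM. In the Hox cluster list 6 of 16 rose and 1 fell. Hoxa3 rose from 0.751 ± 0.185 to 2.01 ± 0.394 CPM and Hoxd3 from 0.0429 ± 0.0362 to 1.148 ± 0.389 CPM, with its E10.5 mean under the level of 3 counts. In the nerve and crest list 6 of 24 tested rose (2 within the macrophage-high libraries) and 2 fell. The endothelin receptor Ednrb, also a gene of other cells, rose from 108 ± 9.04 to 174 ± 11.1 CPM. Of 12 skeletal muscle genes 6 were under the filter on low counts and 3 rose, with a summed level of 31.5 to 41.4 CPM at E10.5 and 68.0 to 107 CPM at E12.5. Ckm, which the heart makes too, was one of the 3, and the others stayed under 1 CPM, Myog going from 0.0133 ± 0.0265 to 0.375 ± 0.108 CPM and Myh8 from 0.111 ± 0.0488 to 0.764 ± 0.182 CPM.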

How the data were processed

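The deposited files hold raw read counts per gene (whole numbers, 1 file per library); the authors trimmed with Trimmomatic 0.36, aligned with STAR 2.5.2b and counted with featureCounts (Subread 1.5.2) on GRCm38 (mm10), per the submitters' processing notes, which were read as names without roles or settings. The annotation release and strand setting were not stated, so overlapping genes are uncertain; 49056 of 49315 identifiers matched GENCODE M21. Genes were filtered by edgeR's filterByExpr and scaled by TMM. The quasi-likelihood test (edgeR 4.0.16, R 4.3.3) was fitted on all 18 libraries with stage as the only term and tested on simulated data. Alternatives were other scalings, filters, DESeq2 1.42.0, limma-voom 3.58.1, the 8 libraries alone, a replicate block, thinning, each library left out, and the macrophage-high and macrophage-low libraries apart. Paralogue ratios added 0.5 to each count.

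The genes named were, of those passing, the 15 largest rises and falls (at least 10 CPM, no overlap), up to 4 per direction and the highest of each of 67 lists, the members of 26 pairs and the 10 largest CPM gains and losses. The comparison, lists and pairs were chosen with earlier results of these data known. Counts over a list and shares of promoters with a motif are descriptions with no test. Of the 420 genes that met this rule, the text gives values for 236, and some are not reported here. The replicates' counts all differed by more than sampling noise. With 36361812 to 45646538 counts per library, 3 counts correspond to 0.0657 to 0.0825 CPM, a limit of counting error only.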

Additional observations from a re-analysis of the deposited data

Results flagged for a closer look

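For 236 genes whose values are given, the 4 libraries of each stage were tested for 1 that lay far from the rest (Dixon's gap test at 95%). Of 472 groups 24 were marked, about the 1 in 20 that chance gives, and the values are given without an explanation.

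E12.5 replicate 3 stood apart for 6 genes and was the highest in each: Pklr at 13.8 CPM (others 2.53 to 2.93), Krt8 at 20.2 (13.7 to 14.7), Cox8b at 10.8 (6.55 to 6.97), H19 at 14678 (11303 to 11778), Cox7a2 at 177 (145 to 149) and Ldha at 1985 (1569 to 1610). E12.5 replicate 4, the macrophage-low library of that stage, was the highest for mt-Co1 at 16378 CPM (13316 to 13805), Fzd1 at 133 (108 to 111), Tgfbr3 at 64.7 (54.2 to 55.6) and Cpt1b at 50.8 (39.7 to 40.1). E12.5 replicate 1 was the highest for Sfrp2 at 154 CPM (95.9 to 101.2), Pdgfb at 13.6 (10.2 to 10.7) and Ntn4 at 15.8 (13.6 to 13.8), and E12.5 replicate 2 the lowest for Kcnk3 at 75.5 (83.9 to 85.5) and the highest for Lin28a at 2.60 (1.73 to 1.82).

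At E10.5, replicate 4 was the lowest for Hand1 at 55.8 CPM (64.5 to 64.9) and Mcm5 at 173 (182 to 184) and the highest for Wif1 at 0.498 (0.287 to 0.313). Replicate 3 was the highest for Slfn14 at 1.48 CPM (1.154 to 1.203) and Myog at 0.0530 (0 in the others). Replicate 1 was the lowest for Slc2a4 at 15.6 CPM (16.8 to 16.9) and the highest for Foxf1 at 1.26 (0.866 to 0.892), and replicate 2 the highest for Esm1 at 0.192 (0.131 to 0.133) and Vegfd at 1.106 (0.636 to 0.708). Apart from Ldha, in each of these genes that passed the edgeR test the stages did not overlap. The same held for 3257 of all 3772 genes that rose and 2993 of all 3409 that fell. The rule for naming the largest changes also required it.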

How the results depend on the processing

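Of 420 genes chosen for naming, 393 passed, 303 of these passed under every alternative run, and none changed direction under any. The count of called genes, 7181, was 7183 with RLE factors, 7260 with library totals (48.9% of calls higher against 52.5%), 7129 without mitochondrial and globin genes, 6378 without a filter, 5586 with at least 10 CPM in 3 libraries, 7569 with DESeq2, 7492 with limma-voom, 7388 with the 8 libraries alone, 6969 after thinning, 7606 with the kind of library as a term, and 5569 and 5880 within the macrophage-high and macrophage-low libraries. Leaving out 1 library gave 6067 to 7191. At least 2-fold changes numbered 1638, from 1481 to 1741 with 1 library left out, and 580 with the filter at 10 CPM, which tests 10851 genes in place of 18885. No scaling moved the median of all genes by more than 0.1 on the log2 scale.

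The replicate block gave 7060 called genes. Whether equal numbers mark paired samples could not be settled. Same-numbered libraries of the stages correlated at -0.417, -0.572, 0.405 and -0.728 in their deviations from the stage means. E10.5 replicates 1 and 2 correlated best with E12.5 replicate 4 (0.758 and 0.748). Correlations were positive within a kind of library and negative between kinds, so they cannot decide on a pairing.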
